A study of Mus musculus with 10 samples.

Results

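The FOS and JUN family of transcription factors was followed in whole-brain RNA of 10 mice. Its 8 genes, Fos, Fosb, Fosl1, Fosl2, Jun, Junb, Jund and Atf3, were taken by symbol, and all 8 were found among the 55471 genes measured. The libraries came from wild-type Swiss Webster pups whose age the study's design gives as neonatal day 5, and every pup had a hypoxic-ischemic brain injury, in which blood flow and oxygen to the brain are interrupted. In 5 pups (numbers 6 to 10) the injury was followed by allopregnanolone, a neurosteroid that strengthens GABA-A receptor currents, and in 5 pups (numbers 1 to 5) it was not treated. No uninjured brain was analysed here, and the sources used here do not state dose, litter or the time from injury to collection. The age at collection may thus be later than day 5. The labels number separate mice but do not say that the pups came from separate litters, so p-values measure the spread between these pups.

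FOS and JUN proteins are basic leucine zipper factors that pair up to form AP-1, which binds short DNA sites in promoters and enhancers. FOS proteins need a JUN partner, whereas JUN proteins can also pair with each other and with ATF3. In neurons, Fos, Fosb and Junb are immediate early genes that calcium entry and growth factor signals switch on within minutes, and in injured brain Jun and Atf3 are known as genes of the stress and axon injury response.

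The sequences just upstream of the start sites are shown for Fos, Fosb, Junb and Jun. They were chosen because the first 3 deviated from their group means in the same direction in several libraries. Jun deviated in the opposite direction in several of these, farthest in treated library 7 and untreated library 4. Each line holds the 150 bases before the RefSeq start, 5′ to 3′ on the strand of the gene (GRCm38.p6), and capitals mark matches to the motifs named after them. Fos lies at chr12:85473740-85473889 on the plus strand, Fosb at chr7:19310046-19310195, Junb at chr8:84978749-84978898 and Jun at chr4:95052223-95052372, these 3 on the minus strand.
Fos: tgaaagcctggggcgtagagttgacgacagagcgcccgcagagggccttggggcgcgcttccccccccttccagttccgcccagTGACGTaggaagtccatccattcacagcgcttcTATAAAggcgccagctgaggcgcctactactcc
Fosb: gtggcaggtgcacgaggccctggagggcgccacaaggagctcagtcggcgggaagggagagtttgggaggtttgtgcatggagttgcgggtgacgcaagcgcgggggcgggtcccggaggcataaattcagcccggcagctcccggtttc
Junb: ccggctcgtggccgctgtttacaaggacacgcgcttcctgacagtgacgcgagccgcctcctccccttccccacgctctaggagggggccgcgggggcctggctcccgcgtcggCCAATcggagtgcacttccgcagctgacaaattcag
Jun: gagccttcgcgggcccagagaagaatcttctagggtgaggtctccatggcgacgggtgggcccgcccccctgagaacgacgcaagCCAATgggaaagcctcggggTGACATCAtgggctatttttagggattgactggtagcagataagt

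The motifs searched on both strands of the 250 bases before each start were TGANTCA (the AP-1 site), TGACGTCA (the cAMP response element) and its first 6 bases TGACGT, which every full element also contains, TGACATCA (known from the JUN promoter), TATAAA and CCAAT. In Fos, TGACGT was found 66 to 61 bases and TATAAA 33 to 28 bases before the start. Jun had TGACATCA 45 to 38 bases and CCAAT 65 to 61 bases before the start, Junb had CCAAT 36 to 32 bases before it, and no motif was matched in the Fosb window. Among 32851 promoter windows of the same length, 6.47% held TGACGT, 2.93% TGACATCA, 12.4% TATAAA, 33.8% CCAAT, 6.75% TGANTCA and 1.55% TGACGTCA. The motifs were chosen after these sequences had been seen, and a match is a description of the letters only. RefSeq windows were at hand for 7 of the 8 genes, and those of Fosl2, Jund and Atf3 are not shown because their RefSeq start lies 671, 1210 and 34706 bases from that of the GENCODE model used here, against 0 bases for Fos and Jun, 6 for Fosb and 30 for Junb.

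With allopregnanolone, Jun and Jund were higher and Fosl2 was lower, while Fos, Fosb, Junb and Atf3 did not pass the test. Levels are CPM, the count of a gene relative to the scaled library total, and a gene passed when its adjusted p in edgeR's quasi-likelihood test was under 0.05 over the 17101 genes with enough counts. Of the 8 genes 7 had enough counts to be tested, and 3 of them passed, against 11.3% of all genes tested. By direction 2 were higher, against 6.62% of all genes, and 1 was lower, against 4.65%. The groups did not overlap for 2 of the 8 genes, Fosl2 and Jund, against 9.64% of all genes tested, with Jund on the higher side (5.44% of all genes) and Fosl2 on the lower side (4.20%).

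**Figure D1:**
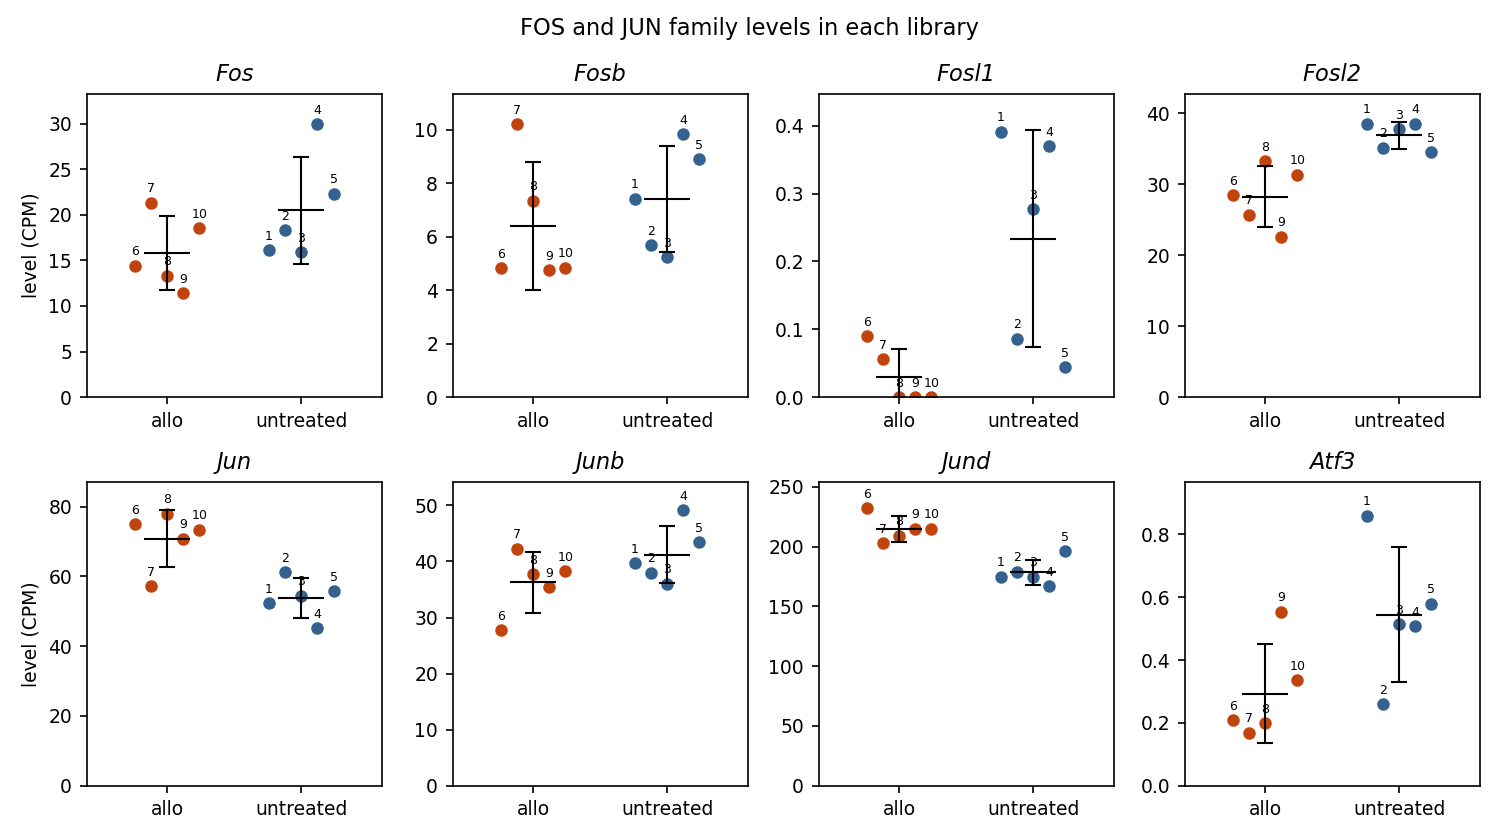
Level in CPM (vertical axis, from 0) of each of the 8 genes in every library, with allopregnanolone libraries (orange, 6 to 10) left of untreated libraries (blue, 1 to 5), and the mean with its SD in black. Jund stands at 203 to 232 CPM with allopregnanolone and 167 to 196 CPM untreated, and Fosl2 at 22.6 to 33.2 and 34.5 to 38.5 CPM.

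Jun encodes c-Jun, the JUN protein that JNK kinases phosphorylate (ENSMUSG00000052684, chromosome 4, 95049034 to 95052222 on GRCm38). It measured 74.9, 57.1, 77.9, 70.8 and 73.4 CPM in allopregnanolone libraries 6 to 10, against 52.3, 61.2, 54.5, 45.2 and 55.7 CPM in untreated libraries 1 to 5. Treated library 7 was the low one of its group and lay below untreated library 2, and in 24 of 25 pairs of a treated and an untreated library the treated one was higher. Jun averaged 70.8 ± 8.09 CPM with allopregnanolone and 53.8 ± 5.85 CPM untreated (SD, n = 5 each), 1.32-fold higher (log2 fold change 0.40, SE 0.09, adjusted p = 0.0132, edgeR). An antisense gene, Junos, shares 7.3% of its exon bases.

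Jund encodes JunD, a JUN protein that many resting cells hold (ENSMUSG00000071076, chromosome 8, 70698949 to 70700616). Its levels were 232, 203, 209, 215 and 215 CPM in allopregnanolone libraries 6 to 10, against 175, 179, 175, 167 and 196 CPM in untreated libraries 1 to 5. Every treated library was above every untreated one. The means were 215 ± 10.9 CPM with allopregnanolone and 178 ± 10.5 CPM untreated (SD, n = 5 each), a smaller rise than that of Jun at 1.21-fold (log2 fold change 0.27, SE 0.05, adjusted p = 0.00757, edgeR). Whether the 2 rises differ was not tested. An antisense gene, Gm11175, lies opposite 52.6% of the Jund exon bases, and since no source used here states the strand setting of the counting, the reads of both cannot be told apart with certainty. Gm11175 itself was assigned 314 counts over the 10 libraries, against 3609 to 7789 counts for Jund in a single library.

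Junb encodes JunB, a JUN protein that can oppose c-Jun on some genes (ENSMUSG00000052837, chromosome 8, 84974484 to 84978718). It read 27.7, 42.3, 37.7, 35.4 and 38.3 CPM in allopregnanolone libraries 6 to 10, against 39.7, 38.0, 36.0, 49.1 and 43.4 CPM in untreated libraries 1 to 5. The groups overlapped, with treated library 6 lowest and untreated library 4 highest of all 10. Its log2 fold change was -0.19 with a 95% interval of -0.42 to 0.04 (adjusted p = 0.280, edgeR), so a fall to 0.749 of the untreated level lies within the interval. Prdx2 overlaps 7.5% of its exon bases on the opposite strand and had 31489 counts over the 10 libraries, against 8852 for Junb, so the share of Junb counts that could belong to it was not tested. Without untreated libraries 1 to 3 the log2 fold change of Junb was -0.36 (adjusted p = 0.232, edgeR).

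Fosl2, which encodes FRA-2, a FOS protein without the strong activation domain of c-Fos (ENSMUSG00000029135, chromosome 5, 32135801 to 32157842), was the only gene of the 8 that fell past the threshold. Its levels were 28.4, 25.7, 33.2, 22.6 and 31.3 CPM in allopregnanolone libraries 6 to 10, against 38.5, 35.1, 37.7, 38.5 and 34.5 CPM in untreated libraries 1 to 5. All treated libraries were below all untreated ones, the closest being treated library 8 and untreated library 5. The means were 28.3 ± 4.27 CPM with allopregnanolone and 36.8 ± 1.92 CPM untreated (SD, n = 5 each), 1.30-fold lower (log2 fold change -0.38, SE 0.09, adjusted p = 0.0169, edgeR). The spread was wider with allopregnanolone, at a coefficient of variation of 15.1% against 5.21% untreated, while counting error alone would give 3.94% and 3.39%.

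Fos, the immediate early gene most used as a mark of recent neuronal activity (ENSMUSG00000021250, chromosome 12, 85473890 to 85477273), had the same size of log2 difference as Fosl2 but a wider spread. It stood at 14.4, 21.3, 13.3, 11.4 and 18.5 CPM in allopregnanolone libraries 6 to 10, against 16.1, 18.3, 15.9, 29.9 and 22.3 CPM in untreated libraries 1 to 5. Untreated library 4 and treated library 7 were the high ones of their groups, and the groups overlapped. The log2 fold change was -0.38 with a 95% interval of -0.79 to 0.04 (adjusted p = 0.227, edgeR), which spans 0.579 to 1.03 of the untreated level. Without untreated library 4 it was -0.21, and without allopregnanolone library 7 it was -0.51, both short of the threshold (adjusted p = 0.513 and 0.117, edgeR). Without untreated libraries 1 to 3 it was -0.73, still short of it (adjusted p = 0.142, edgeR).

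Fosb, whose splice form ΔFosB is known to build up with repeated stimulation (ENSMUSG00000003545, chromosome 7, 19302696 to 19310051), gave 4.83, 10.2, 7.35, 4.75 and 4.84 CPM in allopregnanolone libraries 6 to 10, against 7.42, 5.69, 5.23, 9.84 and 8.90 CPM in untreated libraries 1 to 5. The highest library of all was again treated library 7, and untreated library 4 came next. The log2 fold change was -0.22 (95% interval -0.73 to 0.28, adjusted p = 0.588, edgeR), and with single libraries left out it ranged from -0.45 without treated library 7 to -0.10 without untreated library 4. Without untreated libraries 1 to 3 it was -0.56 (adjusted p = 0.356, edgeR). The table gives 1 value per gene, so splice forms were not separated.

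Atf3, a stress-induced factor known from injured neurons (ENSMUSG00000026628, chromosome 1, 191170296 to 191218039), was near the limit of detection. It had 7, 3, 4, 12 and 7 counts in allopregnanolone libraries 6 to 10, against 22, 6, 13, 11 and 13 counts in untreated libraries 1 to 5. It passed the count minimum through 4 untreated libraries and 1 treated library, so it entered the test mainly on the group where it was higher. In CPM it averaged 0.293 ± 0.159 with allopregnanolone and 0.544 ± 0.215 untreated (SD, n = 5 each). The log2 fold change of -0.89 had a 95% interval of -1.77 to -0.01, and the gene did not pass after adjustment (adjusted p = 0.177, edgeR).

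Fosl1, which encodes FRA-1, a FOS protein known from growth factor and injury responses (ENSMUSG00000024912, chromosome 19, 5447547 to 5455946), was under the count minimum and was compared by an exact permutation test. It had 3, 1, 0, 0 and 0 counts in allopregnanolone libraries 6 to 10, against 10, 2, 7, 8 and 1 counts in untreated libraries 1 to 5. The treated libraries thus held 4 counts in all and the untreated ones 28, and untreated libraries 2 and 5 lay within the range of the treated ones in CPM. The difference in mean log2(CPM + 1) was -0.25 (two-sided exact permutation p = 0.0397, where the smallest possible p is 0.00794). That p is not adjusted over genes, so it cannot be set beside the adjusted p of the other 7 members. Without treated library 8, 9 or 10, each at 0 counts, p was 0.0873. Ccdc85b lies opposite 57.2% of its exon bases and had 7512 counts in all, so a part of these few counts may belong to it.

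**Figure D2:**
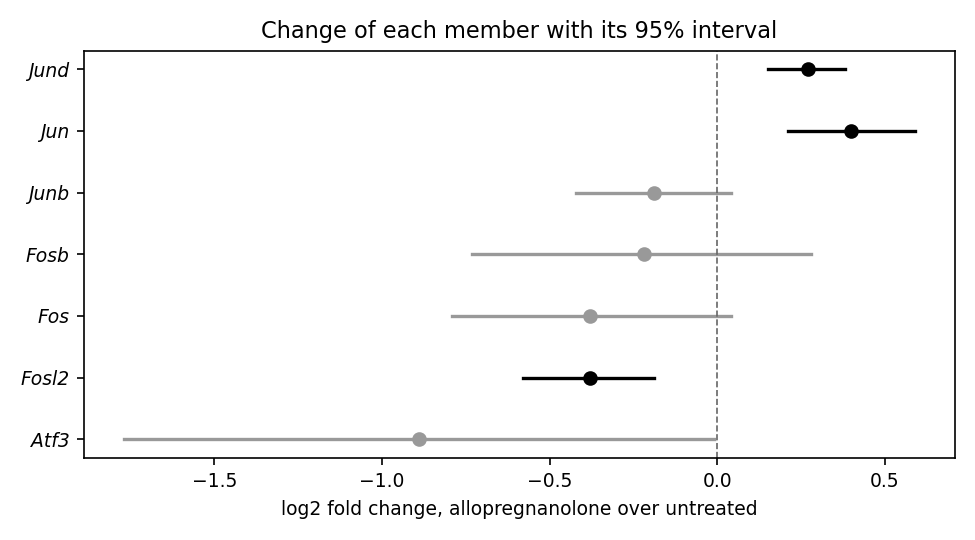
Log2 fold change of allopregnanolone over untreated libraries (horizontal axis) for the 7 genes tested, with 95% intervals from edgeR's fit, in black where the adjusted p was under 0.05 and in grey otherwise. Jund and Jun lie right of 0, Fosl2 lies left of it, and the widest interval is that of Atf3, from -1.77 to -0.01.

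The 3 calls were then read against other features of the libraries. The libraries whose names carry another prefix are untreated libraries 1 to 3, and no source used here says whether the prefix marks a batch. Within the other 7 libraries the log2 fold changes were 0.49 for Jun, 0.24 for Jund and -0.37 for Fosl2. These were of similar size to those in all 10 libraries. With 2 untreated libraries left, however, 0 of the 8 genes passed (adjusted p = 0.110, 0.200 and 0.216 for these 3, edgeR). In that fit 99 of all 17101 genes passed. DESeq2 and limma-trend on all 10 libraries called the same 3 genes as edgeR. Markers of several cell types and of the midbrain also differed between the groups. The counts below stand beside 6.62% of all genes tested that passed as higher and 4.65% that passed as lower. The 8 oligodendrocyte markers summed to 5780 to 7790 CPM with allopregnanolone and to 1950 to 3760 CPM untreated, and all 8 rose. The 6 immature neuron markers summed to 1760 to 1820 CPM with allopregnanolone and to 2180 to 2400 CPM untreated, and all 6 fell. Of 7 activated myeloid markers 6 were tested and all 6 fell. The sums were 1.98 to 3.91 CPM with allopregnanolone and 3.92 to 67.2 CPM untreated. With allopregnanolone the 6 tested were near the floor, with means from 0.281 CPM for Ccl3 to 0.825 CPM for Tlr2. They could thus meet the count minimum mainly through the untreated group, where they were higher. The sums were 3260 to 3790 CPM with allopregnanolone and 2530 to 2950 CPM untreated for 7 astrocyte markers, of which 4 rose. For 6 endothelial markers they were 236 to 258 CPM with allopregnanolone and 178 to 192 CPM untreated, and 3 rose. For 6 proliferation markers they were 45.7 to 53.0 CPM with allopregnanolone and 63.9 to 105 CPM untreated, and all 6 fell. For 5 oligodendrocyte precursor markers they were 766 to 934 CPM with allopregnanolone and 495 to 721 CPM untreated, and 4 rose. For 7 microglia markers they overlapped, at 214 to 233 CPM with allopregnanolone and 217 to 270 CPM untreated, and 1 rose. The sums of neuron, pericyte and fibroblast, ependyma and choroid plexus, and red blood cell markers also overlapped. The 7 midbrain markers, all higher, summed to 13.3 to 106 CPM with allopregnanolone and to 6.83 to 18.9 CPM untreated. Among them En1, Pax5 and Pax7 were near the floor untreated, with means of 0.215, 0.233 and 0.292 CPM. These could thus meet the count minimum mainly through the treated group, where they were higher. No marker of any of these sets was at 0 in every library. In whole-brain RNA, fewer cells of a type and less RNA per cell cannot be told apart, and the part of the cell type and proliferation markers in the calls was not tested. Without treated libraries 6, 7 and 9, whose midbrain sums were the highest, Jun still passed (log2 fold change 0.49, adjusted p = 0.0255, edgeR). Jund had 0.24 (adjusted p = 0.0818) and Fosl2 -0.20 (adjusted p = 0.198) in that fit, so the Fosl2 difference was smaller than the -0.38 of all 10 libraries. These 3 libraries were chosen for leaving out after the data had been seen. They hold the lowest Jun value of the treated group (library 7, 57.1 CPM) and its lowest Fosl2 values (libraries 9 and 7, 22.6 and 25.7 CPM). Without treated library 7 alone Jun had 0.46 (adjusted p = 0.0042, edgeR). Midbrain content and these values thus cannot be told apart in that fit.

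The order of the family by level was read per kilobase of exon, since a longer RNA gives more counts. Jund stood highest at 129 ± 6.56 CPM per kb with allopregnanolone and 107 ± 6.30 untreated (SD, n = 5 each). Jun and Junb followed, at 22.2 ± 2.54 and 15.8 ± 2.35 CPM per kb with allopregnanolone and at 16.9 ± 1.83 and 17.9 ± 2.25 untreated. Jun was above Junb in 4 of 5 treated libraries and in 2 of 5 untreated ones, so that untreated levels of these neighbours did not differ beyond their spread. Fos came next at 6.72 ± 1.72 CPM per kb with allopregnanolone and 8.71 ± 2.49 untreated, then Fosl2 at 2.92 ± 0.441 and 3.81 ± 0.198 and Fosb at 1.03 ± 0.387 and 1.19 ± 0.319. Atf3 and Fosl1 were lowest, at 0.136 ± 0.0738 and 0.0143 ± 0.0205 CPM per kb with allopregnanolone and at 0.253 ± 0.0996 and 0.115 ± 0.0788 untreated. The lengths are those of all annotated exons of a gene, 9.68 kb for Fosl2 and 1.67 kb for Jund. The Jund model of GENCODE starts 1210 bases after that of RefSeq, so its level per kb depends on the annotation.

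**Figure D3:**
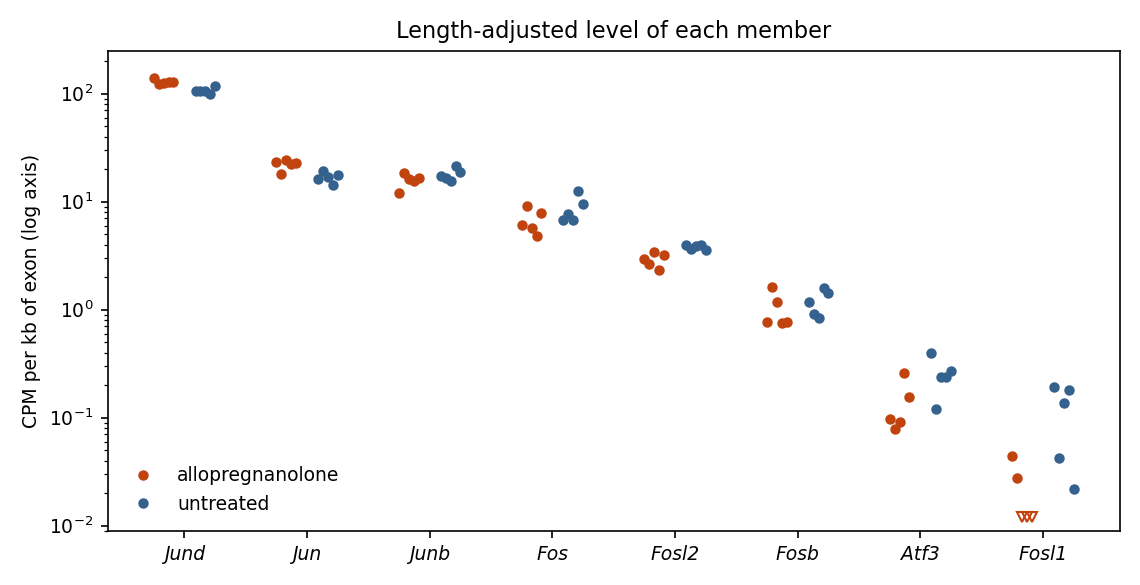
Level of each gene in CPM per kb of exon (log axis) in every library, allopregnanolone (orange) left of untreated (blue), ordered from the highest to the lowest. Open triangles at the foot mark the 3 treated libraries with no Fosl1 count, and Jund lies above every other gene in all 10 libraries.

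The balance between FOS and JUN transcripts follows from the single values above and is given as a description with no test. Fos, Fosb, Fosl1 and Fosl2 together summed to 7.94 to 13.4 CPM per kb with allopregnanolone, median 10.3, against 11.6 to 18.4 untreated, median 12.3. Jun, Junb and Jund summed to 158 to 175 CPM per kb with allopregnanolone and to 136 to 154 untreated. The JUN sum was 16.2 ± 3.48 times the FOS sum with allopregnanolone, the lowest library being at 11.8, and 10.6 ± 1.84 times untreated, with values of 7.36 to 11.9 (SD, n = 5 each). The ranges overlap slightly, since treated library 7 at 11.8 lay just below the highest untreated library. The size of these ratios, and of the shares that follow, depends on the annotated exon lengths, as given above for Jund. Within the JUN sum, Junb took 6.90% to 11.6% with allopregnanolone and 11.3% to 15.7% untreated, while Jund took 75.4% to 79.7% and 73.9% to 76.3%.

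The genes differed in how evenly the pups of a group expressed them. Jund had a coefficient of variation of 5.09% with allopregnanolone and 5.89% untreated, Fosl2 one of 15.1% and 5.21%, Jun one of 11.4% and 10.9% and Junb one of 14.9% and 12.5%. Fos varied by 25.6% with allopregnanolone and 28.6% untreated, and Fosb by 37.7% and 26.9%, where counting error alone would give 5.32% and 4.58% for Fos and 8.48% and 7.59% for Fosb.

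Part of that spread came from the same libraries. For Junb, however, treated library 6 deviated farthest from its group mean, by -0.37 on the log2 scale. For Fosb, untreated library 3 deviated by -0.46. On the log2 scale, treated library 7 deviated from its group mean by 0.47 for Fos, 0.75 for Fosb and 0.24 for Junb, and untreated library 4 by 0.59, 0.45 and 0.26. Jun went the other way in both, at -0.30 in treated library 7 and -0.24 in untreated library 4, the lowest Jun value of each group. These were also the shallowest libraries of their groups, at 18656836 and 20825007 counts, and the part of depth was not tested. With all libraries thinned to the smallest total the log2 fold change of Fos was -0.42 (adjusted p = 0.190, edgeR).

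Over the 10 libraries, deviations from the group means were compared for all 21 pairs of the 7 genes, with exact permutation within the groups (14400 assignments, two-sided). Fosb and Junb had r = 0.769 (exact permutation p = 0.0185) and rank rho 0.783 (p = 0.0176), Fos and Junb r = 0.688 (p = 0.0381) and rho 0.698 (p = 0.0428), and Fos and Fosb r = 0.660 (p = 0.0527) and rho 0.757 (p = 0.0244). Fosb and Jun had r = -0.679 (exact permutation p = 0.0449) and rho -0.437 (p = 0.239), and Fos and Jun r = -0.644 (p = 0.0653) and rho -0.229 (p = 0.549). After Benjamini-Hochberg adjustment over the 21 pairs none passed, the smallest adjusted exact permutation p being 0.274 for r and 0.256 for rho. Without untreated library 4 and treated library 7 the r of Fosb and Junb was 0.564, that of Fos and Junb 0.334, that of Fos and Fosb 0.207, that of Fosb and Jun 0.0527 and that of Fos and Jun 0.267. The opposite course of Jun thus rested on those libraries. Of the 21 other immediate early genes 16 were above the group mean in treated library 7, 16 in untreated library 4 and 13 in both, while Nr4a2 was below it in both, at -0.21 and -0.18. No share over all genes tested is at hand for these libraries, so the counts are a description only.

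**Figure D4:**
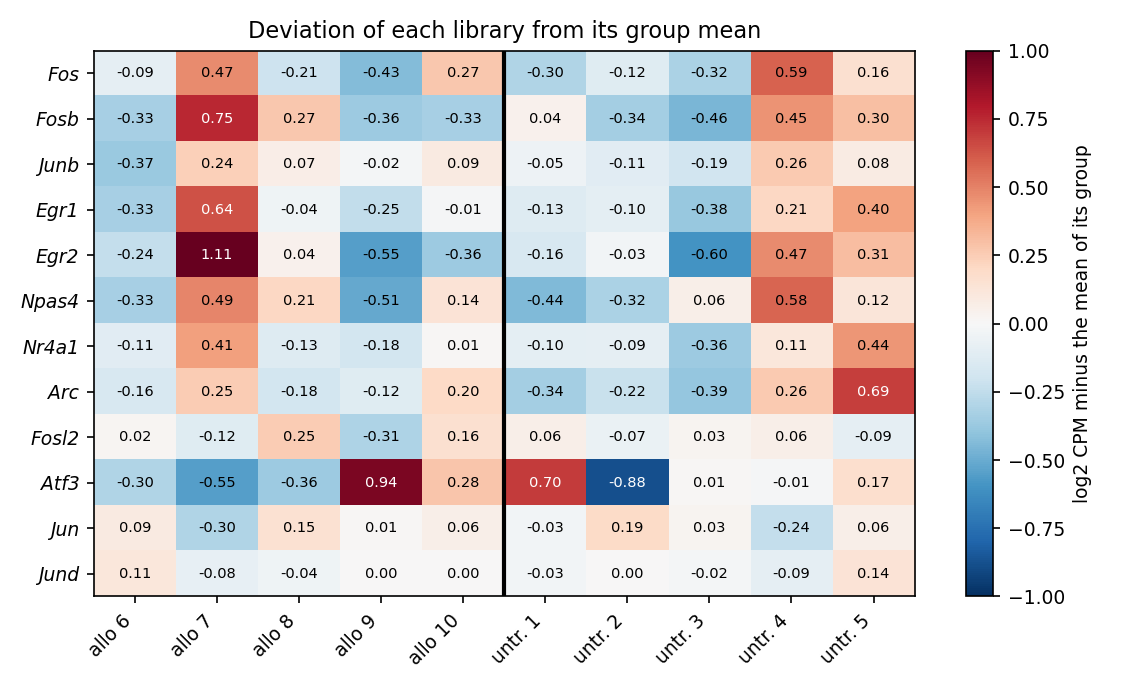
Log2 CPM of each library minus the mean of its group (colour and printed value) for 7 genes of the family and 5 other immediate early genes, allopregnanolone libraries left of the black line and untreated libraries right of it. Treated library 7 and untreated library 4 are above their group means for Fos, Fosb, Junb, Egr1, Egr2, Npas4, Nr4a1 and Arc and below them for Jun and Jund. Of all 21 other immediate early genes, 13 were above the group mean in both libraries, with no share over all genes to set beside this count.

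The 21 other immediate early genes, which neurons and glia switch on through the same signals as Fos, went both ways between the groups. With allopregnanolone 2 of 21 were higher, 4 lower and 15 did not pass, so that 28.6% were called against 11.3% of all genes tested (6.62% higher and 4.65% lower), with a median log2 fold change of -0.04, against a median of -0.0046 over all genes. Klf2, a Krüppel-like factor known from endothelium, averaged 25.0 ± 2.72 CPM with allopregnanolone and 15.8 ± 2.23 untreated (SD, n = 5 each), 1.59-fold higher (adjusted p = 0.00215, edgeR). The endothelial markers were higher as well, as given above, and their part in Klf2 was not tested. Klf4 was 1.46-fold higher (adjusted p = 0.0266). Klf10, a TGF-beta-induced factor, averaged 21.1 ± 2.09 CPM with allopregnanolone and 29.6 ± 3.78 untreated (adjusted p = 0.00716, edgeR). Klf6, the orphan nuclear receptor gene Nr4a3 and Egr3 were 1.16-fold, 1.22-fold and 1.26-fold lower. Klf2 and Klf10 passed whichever single library was left out, but leaving out 1 library ended the other calls. Klf4 missed without untreated library 1, 2, 3 or 4 or treated library 6 or 7 (adjusted p up to 0.0658, edgeR), and Klf6 without untreated library 2, 3 or 4 or treated library 9 or 10 (up to 0.0569). Nr4a3 missed without untreated library 2 or treated library 8 or 9 (adjusted p up to 0.0578, edgeR), and Egr3 without any library but untreated 3 and treated 7 (up to 0.0760). For the activity marks, which did not pass, the log2 fold change was 0.08 for Egr1 (SE 0.17), 0.17 for Arc (SE 0.18) and -0.53 for Npas4 (SE 0.20).

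As a description, the deviations of Fos correlated positively over the 10 libraries with 17 of these 21 genes (median r 0.425), those of Fosb with 18 (median 0.526) and those of Junb with 17 (median 0.343). Jun correlated positively with 5 of the 21 (median r -0.320), Fosl2 with 10 (median -0.0245) and Jund with 10 (median -0.144). The genes share library, depth and scaling, and no p is given.

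Among genes of the signalling that leads to FOS and JUN, the share called was near that of all genes tested. Of 21 genes for kinases and their scaffolds 2 fell and 19 did not pass. This is 9.52% called against 11.3% of all genes, with a median log2 fold change of 0.00. The first was Mapk8, which encodes the c-Jun kinase JNK1, at 124 ± 6.01 CPM with allopregnanolone and 153 ± 12.8 CPM untreated (SD, n = 5 each), 1.24-fold lower without overlap between the groups (adjusted p = 0.00755, edgeR). The second was Rps6ka3, which encodes the kinase RSK2, 1.21-fold lower (adjusted p = 0.0318, edgeR). Rps6ka3 missed without untreated library 1, 2 or 4 or treated library 6, 8, 9 or 10 (adjusted p up to 0.0767, edgeR). The other JNK genes, Mapk9 and Mapk10, had log2 fold changes of 0.09 (SE 0.05) and 0.08 (SE 0.06) and did not pass. Of 15 factors and coactivators 2 rose and 13 did not pass (13.3% called against 11.3% of all genes, median 0.04). Mrtfa, a coactivator of serum response factor, averaged 110 ± 4.74 CPM with allopregnanolone and 82.9 ± 5.39 CPM untreated (SD, n = 5 each), 1.32-fold higher (adjusted p = 0.000856, edgeR), and Elk1, a serum response cofactor that ERK phosphorylates, was 1.19-fold higher (adjusted p = 0.0271, edgeR). Elk1 missed without untreated library 1, 2, 3 or 4 or treated library 7, 8 or 9 (adjusted p up to 0.0750, edgeR). Srf itself, the serum response factor, had a log2 fold change of 0.04 (SE 0.06).

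Of 18 genes for MAP kinase phosphatases and other feedback regulators 2 rose and 16 did not pass. This is 11.1% called against 11.3% of all genes (median 0.05). Dusp10, a phosphatase of JNK and p38, averaged 9.45 ± 0.706 CPM with allopregnanolone and 6.73 ± 0.983 CPM untreated, with n = 5 each for the SD, and was 1.40-fold higher (adjusted p = 0.0156, edgeR). Dusp16, another JNK phosphatase, was 1.32-fold higher (adjusted p = 0.0493, edgeR), and among the fits that leave out 1 library this call held without treated library 9 or 10 and in no other, adjusted p reaching 0.110 without treated library 6. Dusp1 and Dusp4 did not pass, at log2 fold changes of 0.31 (SE 0.12) and -0.54 (SE 0.18). Dusp1 passed without untreated library 5 (adjusted p = 0.00720, edgeR), and Dusp4 without untreated library 1 (0.0473) or treated library 6 (0.0243). Among 20 further basic leucine zipper genes that pair with or resemble AP-1, 17 had enough counts, 1 rose and 16 did not pass (5.88% called against 11.3% of all genes, median 0.05). The riser was Jdp2, the Jun dimerization protein that represses AP-1 sites, at 20.0 ± 2.75 CPM with allopregnanolone and 14.5 ± 1.31 CPM untreated. It was 1.37-fold higher with no overlap between the groups (adjusted p = 0.0114, edgeR).

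Among 23 genes known as AP-1 targets, 18 had enough counts and 0 passed in edgeR's test, against 11.3% of all genes. Of the 18, 7 had an unadjusted p under 0.05 in that test, 6 of them lower. Such values were common, since Atf3 with an unadjusted p of 0.048 (edgeR) ranked 4633 among all 17101 genes. DESeq2 called 3 targets, 1 higher and 2 lower, against 2627 of all genes, 1498 higher and 1129 lower. In limma-trend 0 targets were called, against 1908 of all genes. The median log2 fold change of the targets was -0.27. Gfap, the astrocyte filament gene, stood at 213 ± 43.7 CPM with allopregnanolone and 385 ± 200 CPM untreated, where the values ran from 139 to 696 CPM (adjusted p = 0.0772, edgeR). Timp1, a protease inhibitor that injury induces, stood at 0.348 to 0.567 CPM with allopregnanolone and 0.267 to 4.69 CPM untreated, where untreated library 1 alone was above 1.29 CPM. Cd44, a matrix receptor, had a log2 fold change of -0.45 (SE 0.16) and the gap junction gene Gja1 one of 0.17 (SE 0.06), neither past the threshold. Without untreated library 5, whose Gfap was the lowest of all 10, Gfap (adjusted p = 0.00538), Cd44 (0.0156) and Timp1 (0.0252) passed in edgeR's test. With no count minimum 2 targets were called lower, Gfap (adjusted p = 0.0366, edgeR) and Mmp12, a macrophage protease. Mmp12 had 0, 0, 0, 0 and 2 counts in allopregnanolone libraries 6 to 10, against 100, 77, 45, 24 and 0 counts in untreated libraries 1 to 5. It was high in the libraries where the activated myeloid markers were high, and untreated library 5 was low for both.

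Jun and Atf3 belong to a program known from injured and regrowing neurons, and the other genes of that list did not follow Jun. Of its 20 genes 19 were tested, 1 rose, which was Jun, 6 fell and 12 did not pass (36.8% called against 11.3% of all genes, median -0.11). Without untreated library 3, untreated library 4 or treated library 10, 3 genes of the list were called lower. The members that fell include Tubb2b, a tubulin of growing axons, at 435 ± 50.4 CPM with allopregnanolone and 705 ± 85.5 CPM untreated, which is 1.62-fold lower (adjusted p = 0.000897, edgeR). Gap43, a growth cone protein, was 1.29-fold lower (adjusted p = 0.00208, edgeR). Klf7, a factor that promotes axon growth, was 1.24-fold lower (adjusted p = 0.00604, edgeR), and Klf6, Sox11 and Bbc3 fell as well. Tubb2b, Gap43 and Sox11 are also known from immature neurons, whose markers were lower as given above. Sox11 is itself among those markers, so the 2 sets are not independent.

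**Figure D5:**
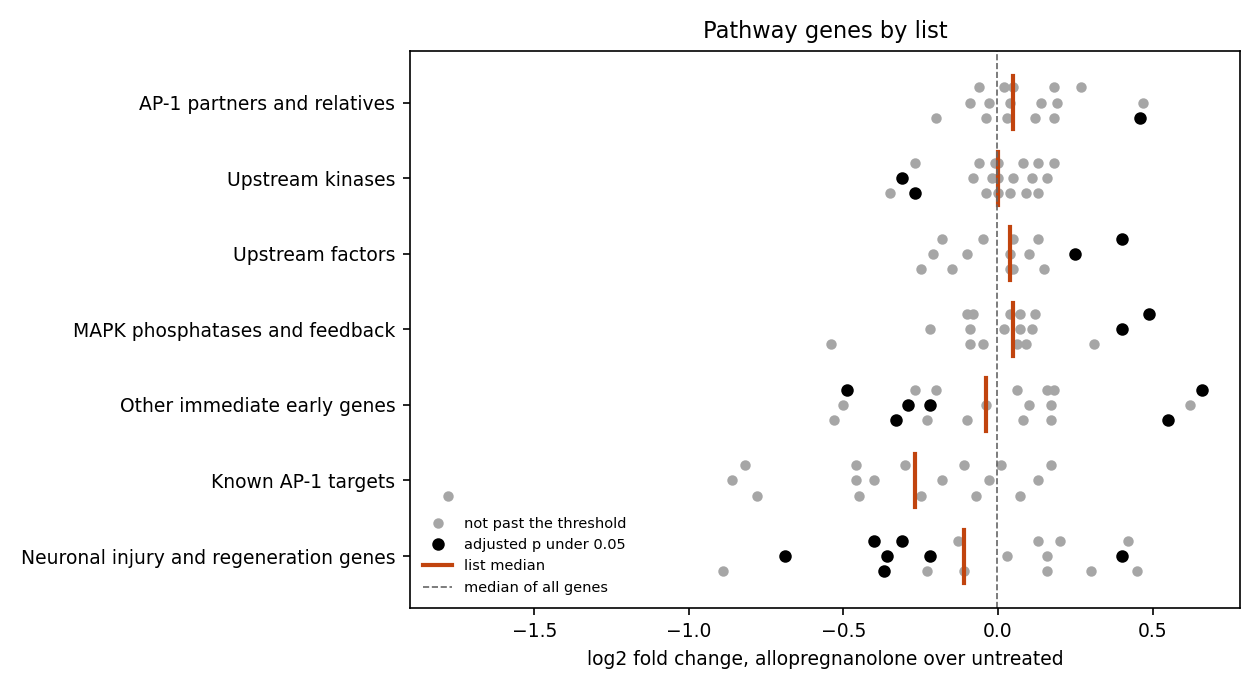
Log2 fold change of allopregnanolone over untreated libraries (horizontal axis) for each tested gene of the 7 lists, black where the adjusted p was under 0.05, with the list median in orange and the median of all genes as a dashed line. The medians run from -0.27 for AP-1 targets to 0.05 for partners and feedback genes.

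The genes whose deviations were most like those of Fos over the 10 libraries were Ei24, Snx4, Elavl2, Ube2d3 and Vamp4, with Pearson r of 0.950 to 0.910 and Spearman rho of 0.915 to 0.952. For Jun they were Pkp4, Grik4, Kpnb1, Pithd1 and Tmem132e (r 0.946 to 0.920, rho 0.770 to 0.927), and for Fosl2 Ccdc66, Dcaf12l1, Gtf2e1, Phip and Ercc6 (r 0.975 to 0.895, rho 0.709 to 0.939). These are the extremes of a search over all named protein-coding genes tested and are given as a description. Of the 15, Elavl2, Pithd1 and Gtf2e1 passed the test between the groups, at log2 fold changes of -0.28, 0.26 and -0.35.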

How the data were processed

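The labels' protocols name the RNeasy Mini Plus kit for RNA and a directional NEBNext Ultra II kit for the libraries. Partek and mm10 are named in the submitters' processing notes, and no source used here states the aligner, the counter or its strand setting. The deposited table holds expected counts (estimated counts per gene, not normalized further as far as the values show) that the authors made for 55471 Ensembl genes in 10 libraries. Although the table is called normalized, 86.8% to 87.6% of its values above 0 were exactly whole (no tolerance) and the totals ran from 18656836 to 34270723, so the values were rounded and tested as counts. Gene names, positions and exon lengths came from GENCODE M21 (GRCm38; 55144 identifiers found), and promoters from RefSeq (GRCm38.p6).

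Genes with at least 10 counts in 5 or more libraries were kept, which left 17101. After TMM scaling (factors 0.953 to 1.04), groups were compared in R 4.3.3 with edgeR 4.0.16 (two-sided quasi-likelihood test, no covariates), with Benjamini-Hochberg adjustment over all genes kept. Alternatives were limma 3.58.1, DESeq2 1.42.0, other scalings and filters, thinning, and leaving out libraries. The test was tried on simulated data. The members and lists were chosen with earlier results of these data known. Named genes were the 8 members, up to 4 genes of each list by smallest p, every gene past the threshold in the upstream and immediate early lists, and the 5 genes most like Fos, Jun and Fosl2; other genes were chosen after their values were seen.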

Additional observations from a re-analysis of the deposited data

Results flagged for a closer look

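In 5 of 104 groups of 5 libraries, 1 library stood far from the others, and chance alone gives about 1 in 20 such groups. Egr3 was at 117 CPM in treated library 7, against 83.1 to 86.9 CPM in the other treated libraries, and this is the treated library that was also highest for Fos, Fosb and Junb. Map3k1, which encodes a kinase upstream of JNK, was at 19.7 CPM in treated library 6, against 12.8 to 14.6 CPM in the others. Nfe2l1, a leucine zipper factor, was at 232 CPM in treated library 8, against 220 to 223 CPM. Elk1 was at 64.3 CPM in untreated library 5, against 51.9 to 54.4 CPM in the other untreated libraries. Timp1 was at 4.69 CPM in untreated library 1, against 0.267 to 1.29 CPM in the other untreated libraries.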

How the results depend on the processing

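No paired analysis was possible because the groups share no replicate numbers. Jun, Jund and Fosl2 passed under 17 of 19 alternatives or more, and no member changed direction. Without untreated libraries 1 to 3, which carry another name prefix, 0 of the 8 members passed, 99 of all genes against 1928, and 0 of 125 pathway genes against 18. In that fit the Fosl1 difference was -0.22 (exact permutation p = 0.143). Without the 3 treated libraries with the highest midbrain sums, 1 member, 346 genes in all and 7 pathway genes passed, and the Fosl1 difference was -0.30 (exact permutation p = 0.0952). Fewer libraries were compared in both fits. With single libraries left out, 1086 (without untreated library 4) to 2341 genes passed, 10 to 22 pathway genes passed, and the Fosl1 difference ranged from -0.31 to -0.21. DESeq2 called 30 pathway genes. Scaling by library totals alone shifted the median of all genes to -0.06 and gave 783 higher and 1451 lower genes, against 1132 and 796. Of the genes like Fos and Jun, none of those that reversed was called: Ei24 was at -0.04 with library totals and -0.01 without the other prefix, Pkp4 at -0.00 with library totals, and Vamp4 at 0.00 after thinning and -0.04 to 0.04 with single libraries left out. The cause was not tested. Depth limits Fosl1 and Atf3 most, with 32 and 98 counts in all.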
